A study of Homo sapiens with 32 samples.

Results

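The genes described here are 10 genes of disulfide bond formation in the endoplasmic reticulum (ER): the protein disulfide isomerases P4HB, PDIA3, PDIA4, PDIA5, PDIA6 and TXNDC5, the oxidases ERO1A and ERO1B, and the stress-inducible ER proteins CRELD2 and MANF. They were chosen by name, with earlier results of these data known. A row belonged to the set when its Ensembl identifier mapped to 1 of these symbols. All 10 were found, each in 1 row, among 60660 gene identifiers, of which 38327 had a count in at least 1 library. All 10 passed the filter on low counts in every comparison. The cells were HCT116, a human colorectal carcinoma line, and every library, controls included, came from cells that carry a doxycycline-inducible OsTIR1 gene (genotype Tet-OsTIR1-PURO). Parental cells were compared with cells in which IGF2BP3 or IGF2BP2, which encode RNA-binding proteins of 1 family, had been disrupted by Cas9 after transient transfection. Each knockout was represented by 3 sorted single-cell clones: IGF2BP3 knockout clones A3 and E4 share a guide and D12 was made with another, and IGF2BP2 knockout clones B7 and F6 share a guide and G6 was made with another. Poly(A)-selected RNA was sequenced from cells kept in DMSO or in tunicamycin, which blocks N-linked glycosylation and so leads to misfolded protein in the ER. Parental cells gave 4 libraries per treatment (2 samples with 2 libraries each), and each knockout gave 6 per treatment (2 libraries for each clone). Parental cells and IGF2BP3 knockout clones received 5 µg/mL tunicamycin for 4 h. For clones B7, F6 and G6 neither is given in the sources used here. The control libraries of clone G6 are control by title and tunicamycin by their treatment field. The title was followed, so they count as DMSO. The edgeR tests that use them were recomputed without them, other than the response by clone in IGF2BP2 knockout, which could not be fitted then. Levels, sums, ratios, changes by line, counts by clone and correlations were not recomputed.

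Proteins entering the ER acquire disulfide bonds from isomerases whose paired cysteines pass an oxidizing equivalent to the substrate, or break and remake a wrong bond. The isomerase P4HB is re-oxidized mainly by the ERO1 enzymes, which hand the electrons to oxygen and release hydrogen peroxide. Misfolded protein switches on the unfolded protein response, in which the transcription factors ATF6, XBP1 and ATF4 raise genes for folding and degradation. ATF6 and XBP1 act through the ER stress response element (ERSE) and related elements in promoters, and isomerase genes are known among the targets.

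Promoter sequence is shown for the members in which such an element was found, since those members can be set beside their measured response. RefSeq promoters (build GRCh38.p14, 250 bases before to 50 after each start, both strands searched) matched 9 of the 10 members in 12 entries, and PDIA3 was not among them. The letters searched were CCAAT and CCACG 9 bases apart for ERSE, ATTGG and CCACG 1 base apart for ERSE-II, TGACGTGG for the unfolded protein response element (UPRE) and TTNCATCA for the C/EBP-ATF response element (CARE). None of these motifs overlapped another in a member. ERSE was in 27 of 35116 promoters (0.0769%), counted by promoter. Counted by member, 3 of the 9 matched members had it in 1 of their entries. Capitals mark the fixed letters of the motif, and the windows read 5′ to 3′ along the gene's strand.
PDIA6 (ERSE, chr2:10812843-10812881, minus strand): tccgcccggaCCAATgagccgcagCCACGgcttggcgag
CRELD2 (ERSE as its reverse complement, chr22:49918544-49918582, plus strand): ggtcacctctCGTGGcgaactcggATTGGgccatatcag
ERO1B (ERSE as its reverse complement, chr1:236282173-236282208, minus strand): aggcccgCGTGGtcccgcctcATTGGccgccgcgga
TXNDC5 (UPRE, chr6:7910152-7910179, minus strand): cactggcggcTGACGTGGcgctcggcgg
The motif began 86 bases before 1 of the starts of PDIA6, 80 bases before the start in CRELD2 and 243 bases before it in ERO1B. The other PDIA6 entry held none of the 4 motifs. UPRE was in 0.729% of all promoters and, among members, in TXNDC5, where it began 92 bases before 1 of its starts. ERSE-II (0.0541% of promoters) and CARE (3.62%) were in 0 of the matched members. P4HB, PDIA4, PDIA5, ERO1A and MANF held none of the 4 motifs in these windows. A match is a run of letters, not a measured binding site. The 3 members with ERSE had tunicamycin changes from 0.95 (PDIA6) to 2.00 (CRELD2) on the log2 scale in parental cells, and the members without it from 0.16 (ERO1A) to 1.83 (MANF), so the ranges overlapped.

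Depth was 16651438 to 24913021 counts per library over the 32 libraries. Levels are given as CPM, a gene's counts relative to its library's total, with totals scaled by the TMM method over all libraries. IGF2BP3 transcript was lower in its knockout (log2 difference -1.48 in DMSO, SE 0.203, adjusted p 0.00251) and IGF2BP2 transcript lower in its own (-1.02, SE 0.0644, adjusted p 1.39e-05), and both stayed measurable. The IGF2BP3 transcript differed among its clones (adjusted p 3.02e-05, edgeR): it averaged 41.1 CPM in D12, 21.3 CPM in A3 and 20.1 CPM in E4 in DMSO, against 76.8 and 76.2 CPM in the parental samples. Transcripts of the epithelial markers EPCAM, CDH1, KRT8, KRT18 and KRT19 were present in every group, with group means from 24.3 CPM (CDH1) to 2406 CPM (KRT8). Among markers of other cell types, PTPRC, CD3E, PECAM1, COL3A1, MYH11 and HBB did not exceed 7 counts in any library, VWF did not exceed 17, and COL1A1 averaged 8.42 to 10.2 CPM in every group. In a bulk sample, fewer cells of a type and less RNA per cell cannot be told apart. Nothing in the labels says that the libraries of a line came from separate cultures, so p-values measure the spread between these libraries. The replicate number moved with the level of several members: in all 16 pairs of libraries from the same line and treatment, replicate 1 was above replicate 2 for MANF (mean log2 difference 0.25), PDIA4 (0.16), P4HB (0.14) and PDIA6 (0.14). TXNDC5 went the other way, with replicate 1 above in 4 of 16 pairs and a mean difference of -0.53. What the replicate number stands for is not given in the labels.

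In unstressed parental cells the classical isomerases were the most abundant of these transcripts per length. P4HB, the founding isomerase and also the beta subunit of collagen prolyl 4-hydroxylase, stood at 144 ± 9.69 CPM per kb of annotated exon (SD, n = 4). PDIA4 (ERp72), an isomerase with several thioredoxin-like domains, stood at 115 ± 9.03 CPM per kb (SD, n = 4). PDIA3, which acts on glycoproteins held by calnexin and calreticulin, stood at 97.0 ± 8.63 CPM per kb (SD, n = 4). PDIA6 followed with 39.5 ± 3.58 and the secreted BiP-binding protein MANF with 23.3 ± 2.46 CPM per kb (SD, n = 4 each). ERO1A, the widely expressed oxidase, stood at 16.8 ± 0.693 CPM per kb, PDIA5 at 8.66 ± 0.368 and CRELD2 at 7.43 ± 0.568 (SD, n = 4 each). ERO1B, an oxidase best known from pancreas, stood at 1.51 ± 0.214 and TXNDC5 at 0.936 ± 0.502 CPM per kb (SD, n = 4 each). Libraries of neighbours in this order did not overlap except those of ERO1B and TXNDC5. With the longest transcript as the length the order was the same, and the libraries of PDIA4 and PDIA3, and of PDIA5 and CRELD2, also overlapped.

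**Figure D1:**
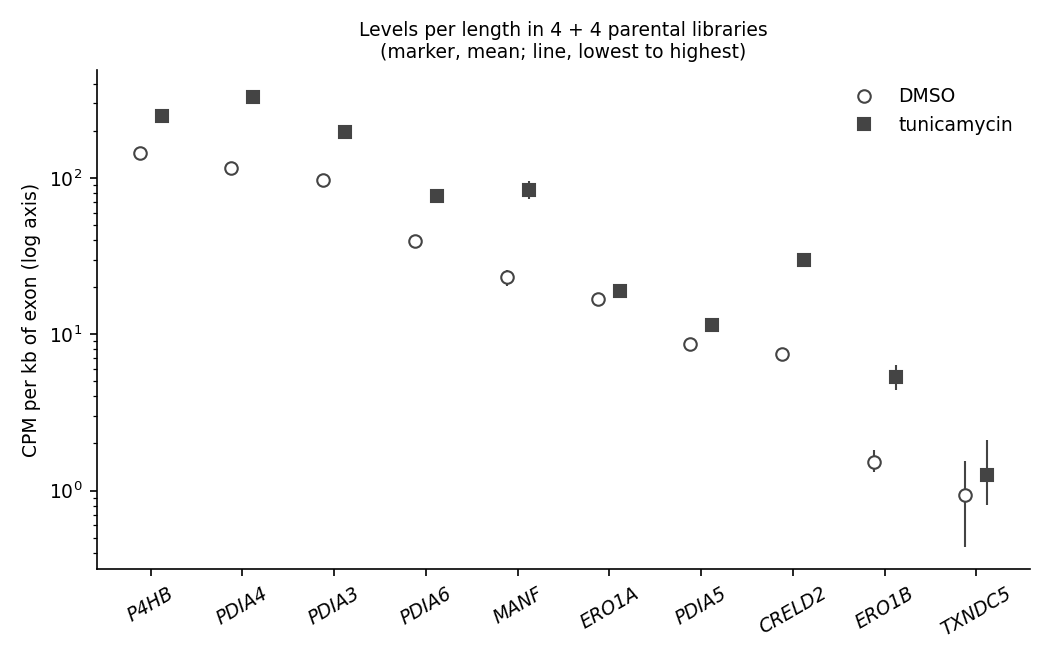
CPM per kb of annotated exon (log axis) of the 10 genes in the 4 DMSO and 4 tunicamycin libraries of parental cells; markers are means and lines run from the lowest to the highest library. In tunicamycin PDIA4 stands above P4HB (330.0 against 249.9 CPM per kb) and CRELD2 above ERO1A (29.8 against 18.9).

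The order changed in tunicamycin. In parental cells PDIA4 became the highest per exon length, at 330.0 ± 22.2 CPM per kb (SD, n = 4), above P4HB at 249.9 ± 12.2, with no overlap of libraries. With the longest transcript as the length P4HB stayed highest (509 against 372.5 CPM per kb), so the rank of these 2 depends on the length used. MANF rose past PDIA6 in mean (83.2 ± 11.1 against 76.6 ± 5.34 CPM per kb), but their libraries overlapped. CRELD2 (29.8 ± 1.11) passed both ERO1A (18.9 ± 0.776) and PDIA5 (11.4 ± 0.412; SD, n = 4 each). The 10 levels summed to 1981 ± 143.5 CPM in parental DMSO libraries and 4126 ± 247.4 CPM in parental tunicamycin libraries (SD, n = 4). P4HB made up 38.5 ± 0.252% of that sum in DMSO and 32.1 ± 0.728% in tunicamycin, and PDIA4 19.1 ± 0.242% and 26.2 ± 0.195%.

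The loci, from GENCODE release 29 on GRCh38, were as follows; the counts carry newer versions of the same identifiers, so lengths and edges may differ from those used for counting. P4HB (ENSG00000185624_15) lies on chromosome 17 from 81843159 to 81860694, PDIA3 (ENSG00000167004_13) on chromosome 15 from 43746392 to 43773279, and PDIA4 (ENSG00000155660_11) on chromosome 7 from 149003062 to 149028641. PDIA5 (ENSG00000065485_20) lies on chromosome 3 from 123067062 to 123225227, PDIA6 (ENSG00000143870_13) on chromosome 2 from 10783391 to 10837977, and TXNDC5 (ENSG00000239264_9) on chromosome 6 from 7881517 to 7910814. ERO1A (ENSG00000197930_13) lies on chromosome 14 from 52639916 to 52695900 and ERO1B (ENSG00000086619_14) on chromosome 1 from 236215555 to 236281985. CRELD2 (ENSG00000184164_15) lies on chromosome 22 from 49918167 to 49927540 and MANF (ENSG00000145050_19) on chromosome 3 from 51385047 to 51389397. All are annotated as protein-coding, and the values are totals over all their exons. Some exons are shared with a neighbour. ATP6V1C2 covers 25.19% of the exon bases of PDIA6 on the opposite strand and averaged 49.8 counts against 4779 for PDIA6. SEC22A covers 12.16% of those of PDIA5 on the same strand and averaged 156 counts against 842. The readthrough gene BLOC1S5-TXNDC5 covers 60.59% of the exon bases of TXNDC5 on the same strand and has 0 counts in every library, while TXNDC5 averaged 88.8 counts. How reads in shared exons were counted, and whether the strand was used, is not given in the sources used here, so TXNDC5 in particular is uncertain.

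The first question was which of these genes respond to tunicamycin, and by how much, in each genotype. In each genotype 9 of the 10 members rose, by 1.12-fold (ERO1A) to 4.00-fold (CRELD2) in parental cells, and TXNDC5 did not pass the test. For comparison, the same test called 11.6% of all genes tested higher in parental cells, 14.8% with IGF2BP3 disrupted and 17.7% with IGF2BP2 disrupted. The members' median log2 change was 0.98, 0.90 and 0.96 in that order, and that of all genes tested was -0.01 in each. As the members were chosen with earlier results known, these shares and medians describe the set and are not a test of it. Tests were edgeR's quasi-likelihood tests with Benjamini-Hochberg adjustment over all genes, at a threshold of 0.05. HSPA5 encodes the ER chaperone BiP and served as a check on the treatment. It rose by 3.35, 3.09 and 3.39 on the log2 scale in the same order. Its response in IGF2BP3 knockout minus that of parental cells was -0.25 (unadjusted p 0.0303, edgeR). Set against IGF2BP2 knockout it was -0.29 (unadjusted p 0.00418, edgeR), and neither difference passed the adjusted test. In the control libraries of clone G6, whose labels conflict, HSPA5 averaged 909.8 CPM. It averaged 852 to 997.8 CPM in DMSO in the other lines and 9796 CPM in clone G6 in tunicamycin.

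**Figure D2:**
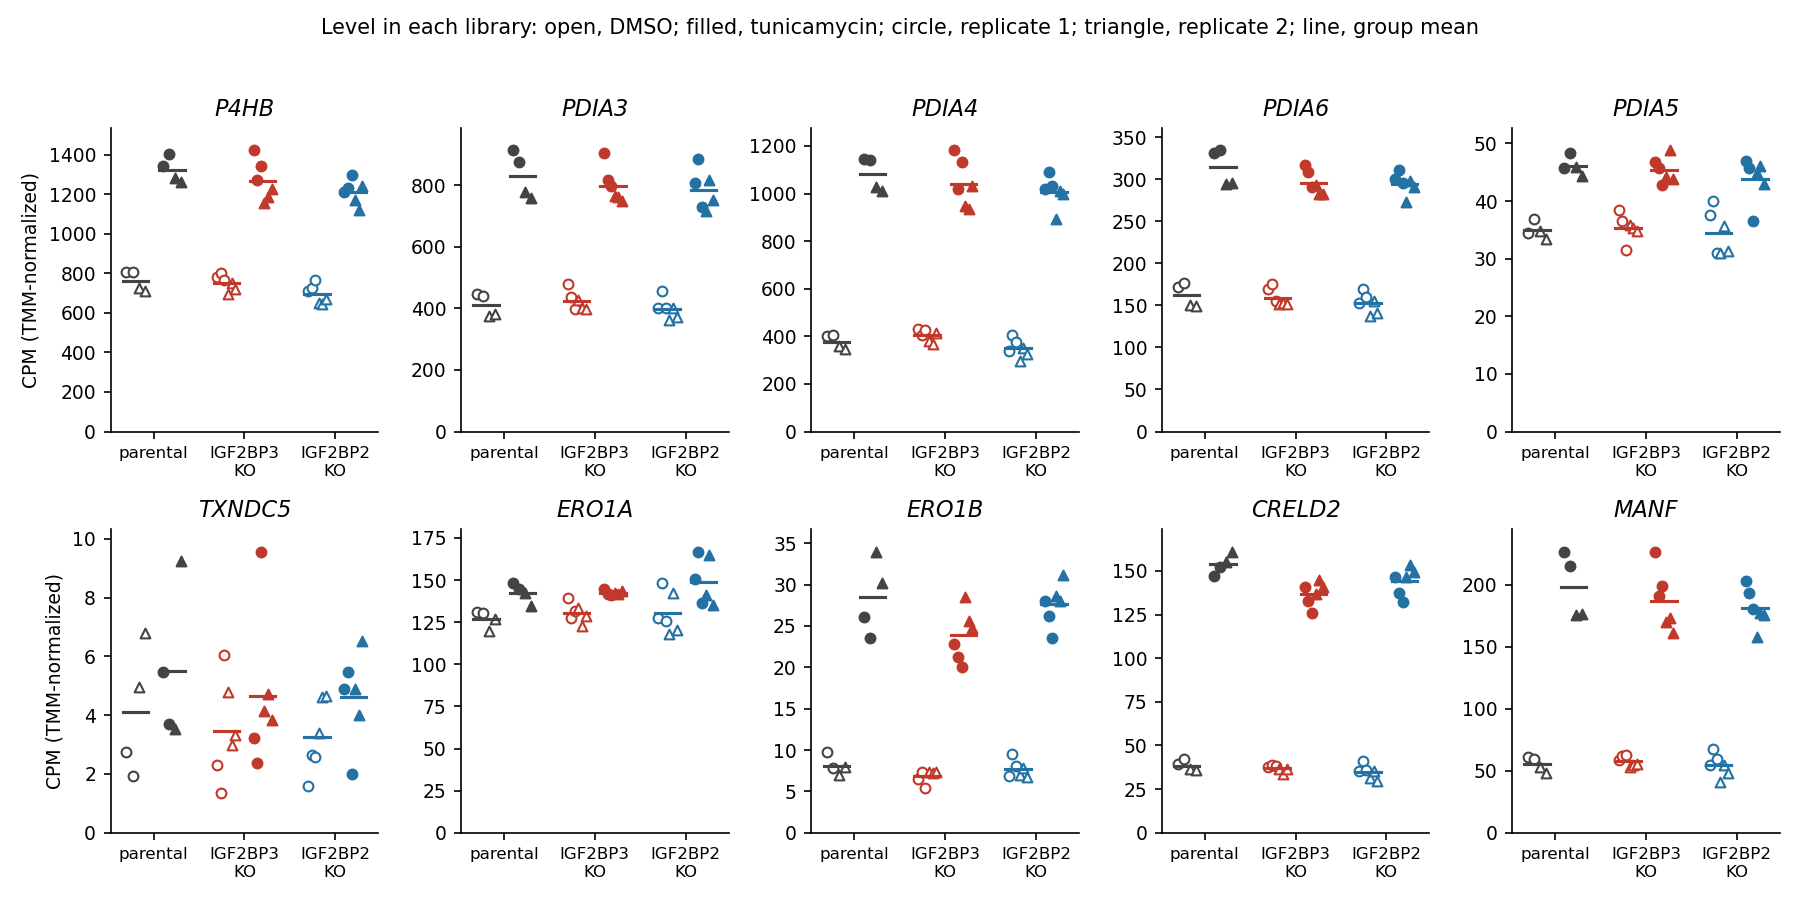
CPM of each gene in every library, by genotype (KO, knockout); open symbols are DMSO, filled symbols tunicamycin, circles replicate 1, triangles replicate 2, and horizontal lines group means. Tunicamycin libraries of P4HB, PDIA3, PDIA4, PDIA6, ERO1B, CRELD2 and MANF lie above the DMSO libraries in each genotype, those of ERO1A and PDIA5 overlap them in IGF2BP2 knockout, and those of TXNDC5 overlap them in each.

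Among the isomerases PDIA4 rose most. Its parental libraries stood at 401.6, 359.4, 403.8 and 345.5 CPM in DMSO and at 1145, 1026, 1143 and 1011 CPM in tunicamycin. The lowest treated library (1011 CPM) was thus far above the highest control library (403.8 CPM). The log2 change was 1.51 (SE 0.0712, adjusted p 2.84e-07, edgeR). It was 1.36 (SE 0.0572) in IGF2BP3 knockout, where libraries ran from 368.4 through a median of 409.1 to 429.2 CPM in DMSO and from 934.6 through 1027 to 1181 CPM in tunicamycin. In IGF2BP2 knockout it was 1.53 (SE 0.0577), from 296.6 through 344.8 to 406.5 CPM in DMSO and from 891.2 through 1016 to 1089 CPM in tunicamycin.

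P4HB, already abundant, rose by less. Its parental libraries stood at 806, 724.8, 806.2 and 710.5 CPM in DMSO and at 1346, 1285, 1406 and 1263 CPM in tunicamycin, a log2 change of 0.79 (SE 0.0631, adjusted p 1.08e-05, edgeR). The change was 0.74 (SE 0.0564) in IGF2BP3 knockout and 0.81 (SE 0.0501) in IGF2BP2 knockout, and treated and control libraries did not overlap in any line. PDIA3 stood at 445.3, 376.4, 440.4 and 383.1 CPM in parental DMSO libraries and at 912.7, 779.3, 873.7 and 758.9 CPM in tunicamycin. Its log2 change was 1.01 (SE 0.0798), 0.91 (SE 0.0504) and 0.98 (SE 0.0489) in parental, IGF2BP3 knockout and IGF2BP2 knockout cells. In both genes the replicate 1 libraries of the parental samples were the higher ones in each treatment, and the treated libraries still lay above every control library.

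PDIA6, whose promoter window above holds ERSE, rose by 0.95 (SE 0.0747), 0.89 (SE 0.0476) and 0.95 (SE 0.0473) on the log2 scale in the same order. Its parental libraries went from 148.9 to 177.2 CPM in DMSO to between 294.6 and 334.3 CPM in tunicamycin. PDIA5 (PDIR), the isomerase with the smallest called change, stood at 34.5, 34.9, 36.9 and 33.3 CPM in parental DMSO libraries and at 45.7, 45.9, 48.3 and 44.4 CPM in tunicamycin. The log2 change was 0.39 (SE 0.0558, adjusted p 0.000522, edgeR), 0.35 (SE 0.0472, adjusted p 3.89e-05) and 0.35 (SE 0.0584, adjusted p 0.00019). In IGF2BP2 knockout the groups of PDIA5 overlapped, since 1 treated library of clone G6 (36.6 CPM) lay below 2 control libraries of other clones. Within each line they did not.

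TXNDC5 (ERp46), an isomerase with thioredoxin domains, was the exception. Its parental DMSO libraries held 2.76, 4.96, 1.92 and 6.80 CPM and its tunicamycin libraries 5.46, 3.53, 3.70 and 9.25 CPM. These are 29 to 221 counts per library over the whole series, and treated and control libraries overlapped in each genotype. The fitted log2 changes were 0.41 (95% interval -0.49 to 1.31, adjusted p 0.537, edgeR), 0.41 (-0.19 to 1.02, adjusted p 0.309) and 0.52 (-0.06 to 1.10, adjusted p 0.156). The mean was higher in tunicamycin in 8 of 8 lines, but the libraries of a line were apart in 1 of them (B7). They were apart in 8 of 8 lines for every other member. How often this was so over all genes was not counted. These intervals include both no change and the change measured for PDIA3. The replicate libraries gave different values: with replicate 1 libraries alone the parental change was 0.95 (adjusted p 4.21e-05, edgeR) and with replicate 2 libraries alone 0.09 (adjusted p 0.715). With counts summed per line it was 0.46 (adjusted p 0.0175), 0.42 (adjusted p 0.00166) and 0.51 (adjusted p 0.00675) in the 3 genotypes. It was also called with no filter on low counts in IGF2BP3 knockout (adjusted p 0.0274) and IGF2BP2 knockout (0.00371), with replicate 1 libraries alone in IGF2BP3 knockout (0.00178), and with a replicate block in IGF2BP2 knockout (0.0309).

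Of the 2 oxidases, ERO1B rose several-fold and ERO1A by little. ERO1B stood at 9.73, 7.02, 7.80 and 7.89 CPM in parental DMSO libraries and at 26.0, 34.0, 23.6 and 30.2 CPM in tunicamycin. Every treated library was at more than 2 times the highest control. The log2 change was 1.80 (SE 0.138, adjusted p 8.48e-06, edgeR) in parental cells, 1.79 (SE 0.0967) in IGF2BP3 knockout and 1.86 (SE 0.0906) in IGF2BP2 knockout. ERO1A stood at 131.3, 119.7, 130.2 and 126.6 CPM in parental DMSO libraries and at 148.5, 142.3, 144.6 and 134.6 CPM in tunicamycin. The groups did not overlap, but the lowest treated library (134.6 CPM) was close to the highest control library (131.3 CPM). Its log2 change was 0.16 (SE 0.0521, adjusted p 0.0473, edgeR), 0.12 (SE 0.0375, adjusted p 0.0252) and 0.19 (SE 0.0379, adjusted p 0.000821). The mean was higher in tunicamycin in 8 of 8 lines, and the libraries of every line were apart, which was not counted over all genes. In parental cells the call of ERO1A was lost when any 1 of the 8 libraries was left out (adjusted p 0.0591 to 0.173), and in IGF2BP3 knockout it was lost without clone D12 (0.256) or clone E4 (0.209). It also ended in both with no filter on low counts (0.203 and 0.270) and with replicate 1 libraries alone (0.0862 and 0.171).

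The balance of the 2 transcripts moved with treatment. Per kb of exon, ERO1B was at 8.97 ± 0.99% of the level of ERO1A in parental DMSO libraries and at 28.2 ± 5.18% in tunicamycin (SD, n = 4). IGF2BP3 knockout libraries gave 7.44 ± 1.01% and 23.6 ± 3.06%, and IGF2BP2 knockout libraries 8.24 ± 0.65% and 26.3 ± 3.75% (SD, n = 6). In parental cells the highest control library was at 10.4% and the lowest treated one at 22.9%, and in IGF2BP2 knockout they were at 9.02% and 22.2%. ERO1A remained the more abundant oxidase transcript in every library.

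CRELD2 and MANF are small ER proteins that stressed cells can also secrete. CRELD2 had the largest estimate of the 10 in each genotype, and MANF was next in parental cells, while in both knockouts the estimate of ERO1B was above that of MANF. CRELD2, an EGF-domain protein with isomerase activity, stood at 39.1, 36.4, 42.2 and 35.8 CPM in parental DMSO libraries and at 147.2, 155.3, 152.5 and 161 CPM in tunicamycin. The log2 change was 2.00 (SE 0.0689, adjusted p 2.61e-08, edgeR) in parental cells, 1.88 (SE 0.0512, adjusted p 1.12e-12) in IGF2BP3 knockout and 2.06 (SE 0.0654, adjusted p 2.68e-12) in IGF2BP2 knockout. MANF, which binds BiP and was first described as a neurotrophic factor, stood at 61.0, 52.9, 59.6 and 48.5 CPM in parental DMSO libraries and at 226.5, 175.6, 215.1 and 176 CPM in tunicamycin. Its log2 change was 1.83 (SE 0.101), 1.68 (SE 0.0794) and 1.75 (SE 0.0885). Replicate 1 libraries of MANF were the higher ones in both treatments, so the spread within a group was wider than for CRELD2.

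The size of the response was also read line by line, over the 8 lines. The log2 change ran from 0.85 to 0.98 for PDIA6, the member with the narrowest range, and from 1.65 to 2.01 for ERO1B, the widest after TXNDC5 (0.06 to 1.04). Clone B7 had the largest change for 8 of the 10 members, among them CRELD2 (2.13), ERO1B (2.01), MANF (1.91) and PDIA4 (1.59). The smallest changes were spread over D12 (3 members), A3, E4 and F6 (2 each) and G6 (1). B7 also had the lowest DMSO level of any line for 6 members, among them PDIA4 (318 CPM, against 351.9 to 420.6 CPM in the other lines) and MANF (48.0 CPM, against 53.7 to 61.0 CPM). In tunicamycin its PDIA4 level was the lowest of the 8 lines (955.2 CPM), and its MANF level of 180.4 CPM lay within the range of the others (178 to 201 CPM). The change and the DMSO level of B7 use the same control libraries, and the members rise together, so these counts are not separate observations. How often B7 was the extreme line over all genes was not counted. By test, the response did not differ among the IGF2BP2 knockout clones for any member.

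**Figure D3:**
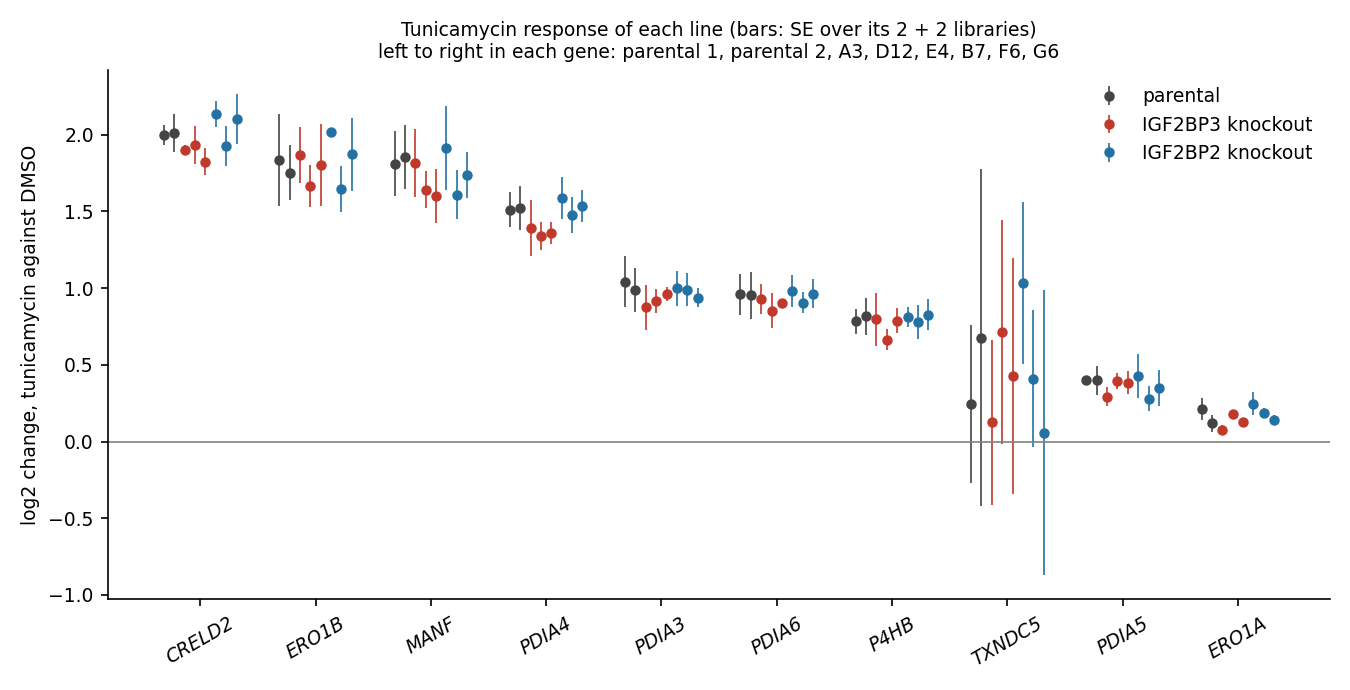
Log2 change, tunicamycin against DMSO, of each gene in each of the 8 lines (dots; bars are the SE from 2 libraries per treatment), coloured by genotype. Every dot is above 0; CRELD2, ERO1B and MANF lie between 1.60 and 2.13, PDIA4 between 1.34 and 1.59, and TXNDC5 has the widest bars.

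The next question was whether loss of either protein changed the basal level of these transcripts. No member was called in DMSO. For IGF2BP3 knockout against parental cells 0 of 10 were called, where 1.61% of all genes tested were, and 0 of 10 members had an unadjusted p under 0.05. For IGF2BP2 knockout against parental cells 0 of 10 were called, against 0.0137% of all genes, again with 0 at an unadjusted p under 0.05. Between the knockouts 0 of 10 were called, against 0.589%, and 2 had an unadjusted p under 0.05. DESeq2 called 0 members in each of these comparisons. In no case were the libraries of a knockout and of parental cells apart, which was so for 4.78% of all genes for IGF2BP3 knockout and 1.18% for IGF2BP2 knockout.

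The intervals show how large a basal difference the spread between these libraries allows. The genotype fits, in DMSO and in tunicamycin, had no term for line and took the 2 libraries of a clone as separate. The intervals may therefore be too narrow for a difference between genotypes, and n counts libraries, not clones. Leaving TXNDC5 aside, the differences of IGF2BP3 knockout from parental cells ran from -0.24 (ERO1B, 95% interval -0.49 to 0.02) to 0.10 (PDIA4, -0.025 to 0.22) on the log2 scale, with 5 positive and 4 negative. Those of IGF2BP2 knockout ran from -0.14 (CRELD2, -0.33 to 0.05) to 0.04 (ERO1A, -0.11 to 0.19), with 8 of 9 negative. P4HB was at -0.13 (-0.27 to 0.0025, adjusted p 0.983, edgeR) in that comparison. Between the knockouts the widest difference was in PDIA4, higher in IGF2BP3 knockout by 0.22 (SE 0.0666, unadjusted p 0.0055, adjusted p 0.158, edgeR). PDIA4 libraries ran from 368.4 to 429.2 CPM in IGF2BP3 knockout and from 296.6 to 406.5 CPM in IGF2BP2 knockout, so they overlapped. For TXNDC5 the intervals were wide, from -1.04 to 0.59 in IGF2BP3 knockout and from -1.09 to 0.44 in IGF2BP2 knockout. The summed level of the 10 genes was 1981 ± 143.5 CPM in parental cells (SD, n = 4), 2010 ± 90.4 CPM in IGF2BP3 knockout and 1860 ± 142.6 CPM in IGF2BP2 knockout (SD, n = 6 each).

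Under tunicamycin no member was called either. For IGF2BP3 knockout against parental cells 0 of 10 were called (0.718% of all genes tested), for IGF2BP2 knockout 0 of 10 (0.00694%), and between the knockouts 0 of 10 (0.391%). In each of the 3 comparisons 1 member had an unadjusted p under 0.05, and DESeq2 called 0. The nearest to a call was CRELD2 in IGF2BP3 knockout. Its libraries stood at 125.9 to 144.6 CPM with a median of 138.7 CPM, against 147.2, 155.3, 152.5 and 161 CPM in parental cells. All 6 knockout libraries therefore lay below all 4 parental ones, and CRELD2 was the 1 member of 10 for which that was so. Libraries apart in either direction were found for 2.91% of all genes in this comparison, and for 0 of 10 members and 1.29% of all genes in IGF2BP2 knockout. The CRELD2 difference was -0.17 (SE 0.0568, 95% interval -0.29 to -0.05, unadjusted p 0.0109, adjusted p 0.288, edgeR). Over the alternatives it ran from -0.20 to -0.14, with adjusted p from 0.047 to 0.628, under the threshold in 1 of 15, the fit with a replicate block. The other 2 members with an unadjusted p under 0.05 were P4HB in IGF2BP2 knockout against parental cells (-0.12, adjusted p 0.695) and ERO1B between the knockouts (-0.22, lower in IGF2BP3 knockout, adjusted p 0.300, edgeR). The summed level was 4126 ± 247.4 CPM in parental cells (SD, n = 4), 3943 ± 277.3 CPM in IGF2BP3 knockout and 3849 ± 166 CPM in IGF2BP2 knockout (SD, n = 6 each).

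Whether the size of the response differed by genotype was tested by the interaction of genotype and treatment. Set against parental cells, the response of IGF2BP3 knockout differed for 0 of 10 members (0% of all genes), and that of IGF2BP2 knockout for 0 of 10 (0%). Set against each other, the responses of both knockouts differed for 0 of 10 (0%). Unadjusted p was under 0.05 for 0 of 10 members in each, and for 266, 233 and 291 of all genes tested; DESeq2 called 0 members. The estimates themselves were small. The response in IGF2BP3 knockout minus that of parental cells was negative for 9 of 10 members, with a median of -0.05 against 0.01 for all genes tested. The most negative were PDIA4 at -0.15 (95% interval -0.34 to 0.05), MANF at -0.14 (-0.42 to 0.15) and CRELD2 at -0.11 (-0.28 to 0.05). Without TXNDC5, no member's interval went below -0.42 or above 0.35. For IGF2BP2 knockout the estimates ran from -0.08 (MANF) to 0.06 (CRELD2), with TXNDC5 at 0.11. Against IGF2BP2 knockout, the response in IGF2BP3 knockout was lower for 9 of 10 members, by 0.17 on the log2 scale in CRELD2 (unadjusted p 0.0546) and by 0.165 in PDIA4 (unadjusted p 0.062, adjusted p 1 in both, edgeR). The comparisons share libraries, so their signs are not independent.

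**Figure D4:**
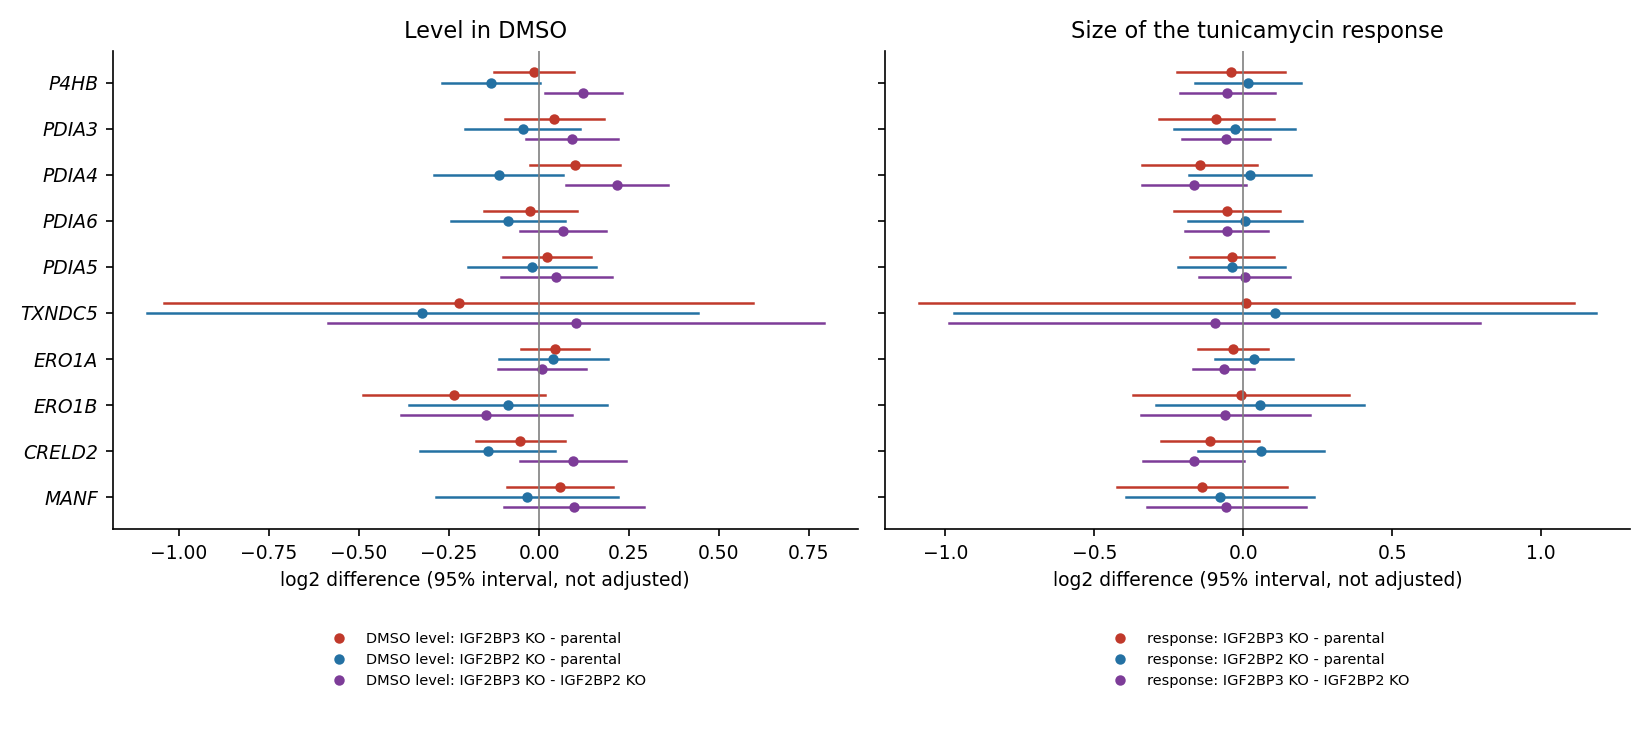
Log2 differences between genotypes (dots) with unadjusted 95% intervals (bars) for the level in DMSO and for the size of the tunicamycin response; KO, knockout. All intervals in the response panel include 0; in the DMSO panel those of PDIA4 and P4HB between the knockouts lie above 0, and neither passed the adjusted test.

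Seen by clone, all 3 IGF2BP3 knockout clones had a smaller change than both parental samples for 5 of the 10 members: PDIA3, PDIA4, PDIA5, PDIA6 and CRELD2. That held for 8.26% of all genes tested. It held for 0 of 10 members in IGF2BP2 knockout, where it held for 9.42% of all genes. The members rise together in these libraries, so 5 of 10 is not 5 separate observations. HSPA5, which is not a member, also had a smaller change in all 3 IGF2BP3 knockout clones. Its changes were 3.41 and 3.31 in the parental samples and 3.11, 3.14 and 3.06 in clones A3, D12 and E4. Whether the smaller changes are particular to the members was not tested. For PDIA4 the changes were 1.51 and 1.52 in the parental samples and 1.39, 1.34 and 1.36 in clones A3, D12 and E4. For CRELD2 they were 2.00 and 2.01 in the parental samples and 1.90, 1.93 and 1.82 in the same clones. For PDIA6 they were 0.96 and 0.95 against 0.93, 0.85 and 0.90, with SEs of 0.0292 to 0.154 for single lines. The SEs of PDIA4 in the same lines were 0.0699 to 0.181. For PDIA5 the changes were 0.3998 and 0.3997 against 0.2933, 0.3933 and 0.3845. Clone D12 (SE 0.0538) was thus barely below the parental samples for PDIA5. In the IGF2BP2 knockout clones B7, F6 and G6 the change of PDIA4 was 1.59, 1.48 and 1.53, on both sides of the parental values.

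Clones were also compared with each other within a genotype. Among the IGF2BP3 knockout clones 0 of 10 members differed in level, where 6.64% of all genes tested did; 1 member, TXNDC5, had an unadjusted p under 0.05, and DESeq2 called 0. TXNDC5 averaged 2.16 CPM in clone D12 and 4.69 CPM in clone E4 in DMSO (adjusted p 0.204, edgeR). Among the IGF2BP2 knockout clones 2 of 10 members differed, against 23.2% of all genes tested, so the count was near that share. Over all genes tested the median log2 range between the highest and lowest clone was 0.23. With the replicate number as a block 6 members differed, with PDIA3 (adjusted p 0.00064), PDIA4 (0.000686), PDIA6 (0.0185) and MANF (0.0353) added, and 5928 of all genes in place of 3566. DESeq2 called 3, with PDIA3 added (adjusted p 0.0262). ERO1A differed by 0.27 on the log2 scale between the highest and lowest clone (adjusted p 0.000916, edgeR). It stood at 148.5 and 142.5 CPM in the DMSO libraries of clone F6, against 117.9 to 127.6 CPM in those of B7 and G6, and at 166.8 and 164.8 CPM in tunicamycin, against 134.9 to 150.5 CPM. The F6 libraries were thus above those of both other clones in each treatment, and the call held in every alternative (adjusted p 5e-07 to 0.00753). PDIA5 differed by 0.25 (adjusted p 0.0441), and was lowest in G6. Its call was lost without the clone G6 control libraries (adjusted p 0.234), with no filter on low counts (0.0661) and in 10 of the 12 fits that left out 1 library (0.0522 to 0.135). In parental cells 0 of 10 members differed between the 2 samples, and 0% of all genes did; 0 members had an unadjusted p under 0.05 and DESeq2 called 0. The response to tunicamycin did not differ by clone for any member, among IGF2BP3 knockout clones (0 of 10, with 0% of all genes called) or IGF2BP2 knockout clones (0 of 10, with 0%), where 0 members had an unadjusted p under 0.05 in either and DESeq2 called 0. Clones were compared over 2 libraries per treatment, which limits what these tests can show.

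The other genes of oxidative folding were read from lists that were drawn up by function, with earlier results of these data known. Of 15 further isomerases and thioredoxin-like ER proteins, 10 passed the filter on low counts, and PDIA2, PDILT, ERP27, AGR2 and AGR3 did not. In each genotype 7 of the 10 rose and 0 fell. In parental cells TXNDC11 rose by 1.03 (SE 0.073), ERP44, which retains ERO1 enzymes in the early secretory pathway, by 0.79 (SE 0.0605), TXNDC12 by 0.78 (SE 0.253, adjusted p 0.0470, edgeR), and the reductase DNAJC10 by 0.58 (SE 0.0904). ERP29, TMX2 and TMX3 rose by 0.35, 0.24 and 0.22. TMX1 (0.10), TMX4 (0.15) and TXNDC16 (-0.05) did not pass the test. The median over these 10 was 0.30, against 0.98 for the members. The members were also chosen with earlier results known, so these medians describe the lists and are not a test.

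Of 7 other oxidases and peroxidases, 6 passed the filter and GPX7 did not. GPX8, a peroxidase that can use the hydrogen peroxide made by ERO1, rose by 0.79 (SE 0.0596, adjusted p 7.38e-06, edgeR) in parental cells, by 0.70 in IGF2BP3 knockout and by 0.75 in IGF2BP2 knockout. The peroxiredoxin PRDX4 was at -0.17 in parental cells (adjusted p 0.226), -0.11 in IGF2BP3 knockout (adjusted p 0.250) and fell by 0.16 in IGF2BP2 knockout (adjusted p 0.0458, edgeR). QSOX1, QSOX2, VKORC1 and VKORC1L1 did not pass the test in any genotype, with log2 changes from -0.17 to 0.49.

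Of 15 partner genes (lectin chaperones, glucosyltransferases, prolyl hydroxylase subunits, KDEL receptors and relatives of the members), 14 passed the filter and MTTP did not. In parental cells 6 rose and 0 fell, in IGF2BP3 knockout 5 rose and 1 fell, and in IGF2BP2 knockout 8 rose and 1 fell. CALR and CANX, the lectin chaperones that work with PDIA3, rose by 1.31 (SE 0.0799) and 0.56 (SE 0.0694) in parental cells, and UGGT1, the folding sensor of the same cycle, by 0.54 (SE 0.0531). CRELD1, the paralogue of CRELD2, rose by 2.75 (SE 0.34, adjusted p 0.000219, edgeR) in parental cells. CDNF, the paralogue of MANF, was at 0.79 (SE 0.351, adjusted p 0.140). KDELR3, a receptor that returns ER proteins from the Golgi, fell by 0.21 in IGF2BP3 knockout (adjusted p 0.00576, edgeR) and by 0.26 in IGF2BP2 knockout (adjusted p 0.00138). It was at -0.16 in parental cells (adjusted p 0.275), and neither knockout's response differed from that by test (unadjusted p 0.604 and 0.354). P4HA1 encodes a protein that forms prolyl 4-hydroxylase with P4HB. Among the members and the listed isomerases, oxidases and partners, it alone was called against parental cells in DMSO. Its level was higher with IGF2BP3 disrupted, by 0.33 (SE 0.0752, adjusted p 0.0455, edgeR). That comparison called 1.61% of all genes tested, and from 13 to 520 genes over the alternatives. How the P4HA1 call fares under them is not given here.

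Genes with a pattern like each member's were sought outside all gene lists, among 10102 with a mean count of at least 100. Pearson correlation of log2 CPM was taken over the 16 means of line and treatment. The closest genes below are from that search. Members could be as close to each other: PDIA6 correlated with CRELD2 and MANF at 0.997 each. These correlations describe points that share libraries and the tunicamycin step, and carry no test. CRELD2 was closest to HYOU1 and DNAJB9 (r 0.998 and 0.997), MANF to DNAJB11 and SLC35B1 (0.998 each), and PDIA4 to DNAJB11 and SEPHS2 (0.997 each). P4HB was closest to SURF4 and GOT1 (0.996 and 0.994), PDIA3 to TMED7 and UBE2J1 (0.997 and 0.995), PDIA6 to CTBP2 and SSR3 (0.998 and 0.996), and ERO1B to SEC24D and UGDH (0.996 and 0.995). The members with small changes had lower correlations: PDIA5 was closest to RAD23B and SETD3 (0.967 and 0.964), ERO1A to SMAD2 and KATNBL1 (0.952 and 0.946) and TXNDC5 to WBP2 and ALDH6A1 (0.835 and 0.817).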

How the data were processed

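Gene counts per library were deposited by the authors as 1 table of raw whole-number counts for 32 libraries. Poly(A)-selected, strand-marking libraries were sequenced in paired reads, per the labels' protocols. Reads were aligned with STAR 2.7.5c to hg38, per the submitters' processing notes. The counting tool, its strand setting and the annotation are not given in the sources used here. Libraries were grouped by title. Counts were tested with edgeR 4.0.16 (TMM scaling, filterByExpr, quasi-likelihood F test, Benjamini-Hochberg adjustment over all genes tested, threshold 0.05) in R 4.3.3. Each treatment and genotype comparison used the libraries of the groups compared. SE is the log2 change divided by the square root of F, and intervals are unadjusted at 95%. CPM was TMM-scaled over all libraries, with a prior count of 2 for log2 values. No 2 libraries of the same line and treatment had counts alike within sampling noise (chi-square per degree of freedom 4.59 to 25.2). The fits were run on simulated counts without spread between clones, so that run says nothing of the genotype fits under such spread. Named genes were the members, the listed pathway genes and, outside the lists, the 2 genes most correlated with each member. The members and lists were chosen with earlier results of these data known. Alternatives were a replicate block, DESeq2 1.42.0, its size factors, no filter, counts summed per line, 1 fit of all libraries, and leaving out libraries, clones or a replicate number. Those by replicate number, and a motif search with 1 mismatch, were chosen after seeing the data; the search found ERSE in the same 3 members (1.55% of promoters). One listed cell type marker is not reported here.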

Additional observations from a re-analysis of the deposited data

Results flagged for a closer look

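In the 60 groups of libraries examined (10 genes, 3 genotypes, 2 treatments), 1 group held a library far from the others, and chance flags about 1 in 20 groups. TXNDC5 stood at 9.557 CPM in replicate 1 of clone E4 in tunicamycin, while the next library of IGF2BP3 knockout stood at 4.711 CPM and the lowest at 2.379 CPM. The gap made up 0.675 of the range of these 6 libraries, against a critical value of 0.625.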

How the results depend on the processing

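Over the members and alternatives, 2555 results kept their side of the threshold, 26 lost a call, 19 gained one and 0 reversed. Where the number of members called moved by over 1.5 times, it moved as follows. With the replicate block 1 member (CRELD2, -0.17, adjusted p 0.047, edgeR) was called in IGF2BP3 knockout against parental cells in tunicamycin, and 6 members among IGF2BP2 knockout clones. With no filter on low counts 1 member (TXNDC5, adjusted p 8.45e-07) was called among IGF2BP3 knockout clones and 1 among IGF2BP2 knockout clones, and without the clone G6 control libraries 1 among the latter. Leaving out 1 library gave 1 to 2 members there. For the response of IGF2BP3 against IGF2BP2 knockout, leaving out replicates gave 0 to 1 members (PDIA4, -0.25, adjusted p 0.00169, without replicate 1). The causes were not tested. Libraries with the same replicate number deviated together across lines: deviations correlated at 0.0755 to 0.524 (median 0.350) over 120 pairs, above 0.1 in 118. As 2 pairs were not above 0.1 and the labels do not say what the number stands for, the fit without the block is the one reported. Its error therefore includes the shift shared by replicate number, and it may miss calls that the block makes. Over all genes, the block called 6030 in place of 3816 for tunicamycin in parental cells, 513 in place of 235 for IGF2BP3 knockout against parental cells in DMSO and 333 in place of 105 in tunicamycin, and DESeq2 called 507 and 270 in the last 2. For IGF2BP3 against IGF2BP2 knockout the block and DESeq2 called 165 and 354 in place of 84 in DMSO, and 214 and 379 in place of 55 in tunicamycin. For IGF2BP2 knockout against parental cells DESeq2 called 12 in place of 2 in DMSO and 3 in place of 1 in tunicamycin. Among clones the block called 2039 in place of 1031 (IGF2BP3 knockout) and 5928 in place of 3566 (IGF2BP2 knockout). Other settings lowered the counts: without replicate 1, 13 genes were called for IGF2BP3 knockout against parental cells in DMSO and 13 in tunicamycin; with counts summed per line, 1 between the knockouts in DMSO and 1 in tunicamycin, and 1 and 0 for IGF2BP2 knockout against parental cells. Without clone E4, 3117 in place of 4807 were called for tunicamycin in IGF2BP3 knockout, and without 1 DMSO library of E4 658 in place of 1031 among its clones. The background shares beside the members move with these counts. In place of 0, the response of IGF2BP3 against IGF2BP2 knockout reached 24 genes without replicate 1, and the response by IGF2BP2 knockout clone 68 with no filter. With all 32 libraries in 1 fit the 6 genotype comparisons called 520, 169 and 941 genes in DMSO and 522, 256 and 1233 in tunicamycin, in the order IGF2BP3 knockout against parental, IGF2BP2 knockout against parental and between knockouts; its error is the spread between libraries of a line, without that between clones, and it called 0 members. The response by clone in IGF2BP2 knockout could not be fitted without the clone G6 control libraries. TXNDC5 had the lowest counts of the members (29 to 221 per library) and a wide spread between libraries, and the part of depth in that spread was not tested.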
